A study of Mus musculus with 9 samples.

Results

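Caveolae are small flask-shaped pits of the plasma membrane, and the genes described here encode the proteins that build and hold them. They were the caveolins Cav1 and Cav2, the cavins Cavin1, Cavin2 and Cavin3, the neck protein Ehd2 and the curvature proteins Pacsin2 and Pacsin3, chosen by gene symbol from a list of 8, all of which were found among the 55359 genes of the count table and all of which had enough counts to be tested. The study cultured fat cell precursors from the inguinal (subcutaneous) white fat pad of mice, labelled iWAT preadipocyte on all 3 days, and made 9 RNA-seq libraries from total RNA. Cells without treatment gave 3 libraries (day 0), and cells 4 and 8 days into beige differentiation, the course toward heat-producing fat cells, gave 3 each. The induction medium, which the day 0 cells did not receive, held dexamethasone, 3-isobutyl-1-methylxanthine, indomethacin, insulin, 3,3′,5-triiodo-L-thyronine and rosiglitazone, and the first 3 of these were left out of the maintenance medium used after the induction period. Nothing in the labels says that replicates of a day are separate cultures or mice, and no strain or age is named there. The p-values therefore cover the spread among these libraries alone, and that spread may be technical.

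Cav1 inserts into the inner leaflet of the membrane as an oligomer and is needed for caveolae in fat cells, and Cav2 joins it in hetero-oligomers. Cavin1 assembles with the other cavins into a coat on the cytosolic face, with Cavin2 and Cavin3 as alternative partners, while the ATPase Ehd2 sits as a ring at the neck and holds the pit at the surface. Pacsin2 and Pacsin3 are F-BAR proteins that bend membranes and have been found at caveolae. Fat cells are among the cells richest in caveolae, and people or mice without CAV1 or CAVIN1 function lose fat tissue.

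Total counts per library ranged from 26387408 to 31474490, and levels are given as CPM, each gene's counts scaled to a common library size with edgeR's TMM factors. Errors on CPM are SDs over 3 libraries. Marker genes of fat cells (10 listed, such as Adipoq and Fabp4) summed to between 55.0 and 82.3 CPM at day 0, 23800 to 43000 at day 4 and 31200 to 34900 at day 8, and 10 markers of precursors, to 2700 to 3160, 1160 to 2310 and 774 to 1160 CPM. The precursor markers did not all go one way: of 9 tested, 4 were lower at day 4 than at day 0 (Pdgfra, Pdgfrb, Thy1 and Lum) and 3 higher (Cd34, Ly6a and Dlk1), while at day 8 6 were lower and 0 higher. Of all tested genes, 26% were lower and 28.6% higher at day 4, and 29.9% and 33.5% at day 8. Day 4 replicate 2 stood apart on the first principal component of all tested genes, at 13.7 against 84.6 and 69.5 in the other day 4 libraries and -138 to -135 at day 0, and calls that change without it are given with each gene. The part of these marker changes, and of that library, in the results below was not tested beyond those values. In bulk RNA, a change in the share of cells of a type and a change in RNA per cell cannot be told apart.

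By day 4 the caveolins, the cavins and Ehd2 had all risen, and the F-BAR genes had not passed the test. Of the 8 genes 6 were higher at day 4 than at day 0 and 0 lower (edgeR quasi-likelihood test, Benjamini-Hochberg adjusted p under 0.05), against 28.6% of all 14649 tested genes higher and 26% lower. The same 6 had day 4 libraries that did not overlap those of day 0, as did 65.8% of all genes. The median log2 fold change was 1.85, beside -0.01 over all tested genes. At day 8, 7 of the 8 were higher than at day 0 and 1 lower, where 33.5% and 29.9% of all genes were higher and lower, and all 8 were free of overlap (72.7% of all genes). Both comparisons share the day 0 libraries. Between day 4 and day 8, 4 genes fell and 1 rose, where 10.8% and 11.7% of all genes did, and those 5 had no overlap (37% of all genes). With total counts in place of TMM scaling, the median over all tested genes moved to -0.34 (day 4 against day 0) and -0.33 (day 8 against day 0), and the same 6 genes were called higher in both comparisons.

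**Figure D1:**
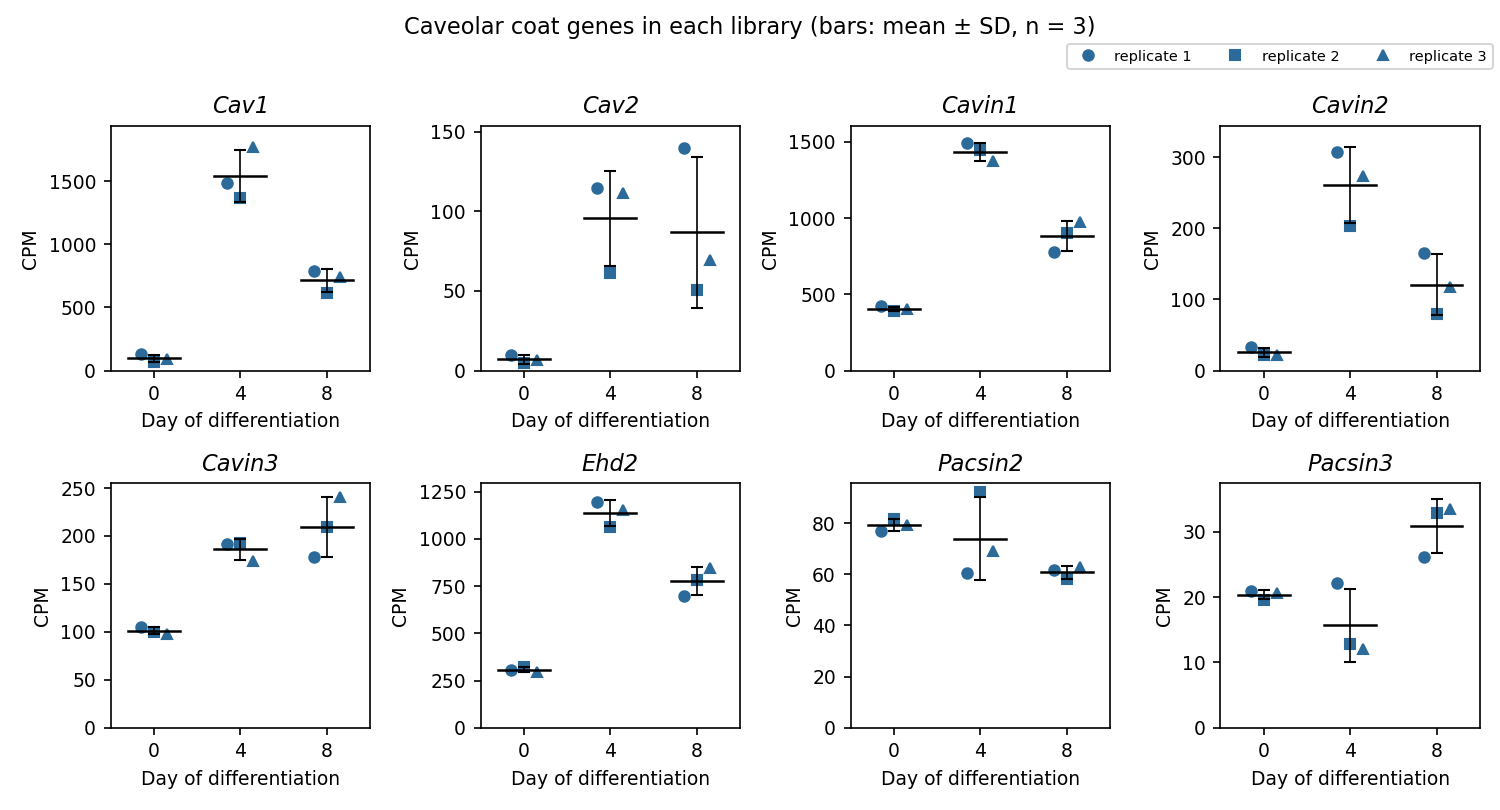
CPM (linear axis from 0) of each of the 8 genes in each of the 9 libraries by day of differentiation, with circles, squares and triangles for replicates 1, 2 and 3, a line at the mean and bars of 1 SD (n = 3). Cav1, Cavin1, Cavin2 and Ehd2 peak at day 4 and stay above day 0 at day 8, Cavin3 has means of 186 and 209.4 CPM at days 4 and 8, and Pacsin2 and Pacsin3 reach at most 92.2 and 33.5 CPM.

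Cav1 (ENSMUSG00000007655, chromosome 6), the scaffold of the caveola, had the largest fold rise of the 8 by day 4, whereas by day 8 that of Cav2 was larger. It stood at 127, 70.2 and 89.4 CPM in the day 0 libraries, at 1486, 1364 and 1766 CPM at day 4 and at 791, 611 and 740 CPM at day 8. The groups did not overlap in any of the 3 comparisons, and the day 0 libraries themselves spread 1.81-fold. The level was 16.1-fold higher at day 4 than at day 0 (log2 fold change 4.01, SE 0.25, adjusted p = 7.21e-07) and 7.47-fold higher at day 8 (2.90, SE 0.24, adjusted p = 4.09e-06). From day 4 to day 8 it fell by 1.11 on the log2 scale (SE 0.22, adjusted p = 0.00738), to 0.464 of the day 4 level.

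Cav2 (ENSMUSG00000000058), the partner caveolin, is the neighbour of Cav1 on chromosome 6 and started far lower. Its levels were 9.65, 4.60 and 6.63 CPM at day 0, 114, 61.4 and 112 CPM at day 4 and 140, 50.6 and 69.6 CPM at day 8. Every library of days 4 and 8 lay above every day 0 library, while days 4 and 8 overlapped. The rise was 13.7-fold by day 4 (3.78, SE 0.43, adjusted p = 4.34e-05) and 12.4-fold by day 8 (3.64, SE 0.43, adjusted p = 4.23e-05). Day 8 and day 4 differed by -0.14 on the log2 scale, with a 95% interval from -0.99 to 0.70 (adjusted p = 0.812). Leaving out single libraries moved it from -0.67 (without day 8 replicate 1) to 0.13 (without day 8 replicate 2), with 0.0046 without day 4 replicate 1 and -0.42 without day 4 replicate 2, and it did not pass in any of these.

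The promoter windows below belong to Cav1, Cav2 and Cavin2, the 3 genes with the largest rises by day 4, and to Pacsin2, which did not rise, so that their letters can be set side by side. Each is the 250 bases before the RefSeq start site (GRCm38.p6, the first start listed, 5′ to 3′ on the gene's strand), at chr6:17306085-17306334, chr6:17280935-17281184 and chr1:51288876-51289125 on the plus strand and chr15:83464607-83464856 on the minus strand, none of them overlapping an annotated exon. Capitals mark matches on either strand to the TATA box (TATAAA), the CCAAT box (its letters are its name), the GC box (GGGCGG), a C/EBP-type motif (TTGCNNAA), the nuclear receptor half-site (AGGTCA), a TEAD-type motif (GGAATG), the sterol element (TCACNCCAC) or DR1, a repeat of the half-site after 1 free base, so that each DR1 match also holds half-site matches.
Cav1: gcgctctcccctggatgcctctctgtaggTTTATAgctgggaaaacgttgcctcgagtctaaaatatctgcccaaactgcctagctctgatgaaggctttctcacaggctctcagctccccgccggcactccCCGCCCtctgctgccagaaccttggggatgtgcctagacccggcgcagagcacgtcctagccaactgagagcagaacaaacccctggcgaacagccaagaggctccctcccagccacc
Cav2: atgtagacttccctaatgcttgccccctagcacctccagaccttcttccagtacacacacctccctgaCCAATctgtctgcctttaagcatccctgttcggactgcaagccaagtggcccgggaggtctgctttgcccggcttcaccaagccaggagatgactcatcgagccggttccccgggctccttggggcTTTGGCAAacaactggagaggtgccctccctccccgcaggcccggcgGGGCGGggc
Cavin2: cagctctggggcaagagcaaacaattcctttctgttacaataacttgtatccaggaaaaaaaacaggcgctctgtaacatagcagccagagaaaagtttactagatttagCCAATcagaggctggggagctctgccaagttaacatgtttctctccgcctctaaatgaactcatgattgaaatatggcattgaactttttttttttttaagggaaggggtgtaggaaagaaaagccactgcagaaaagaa
Pacsin2: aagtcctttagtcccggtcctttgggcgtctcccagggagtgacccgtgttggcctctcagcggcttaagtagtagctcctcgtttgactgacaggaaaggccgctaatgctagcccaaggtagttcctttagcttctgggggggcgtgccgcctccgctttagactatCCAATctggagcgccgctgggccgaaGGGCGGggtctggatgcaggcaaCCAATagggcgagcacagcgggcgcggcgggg
The Cav1 window held a TATA box match on the opposite strand, 216 to 221 bases before the start, and a GC box 113 to 118 bases before it. In the Cav2 window a CCAAT match lay 178 to 182 bases, a C/EBP-type match 49 to 56 bases and a GC box 4 to 9 bases before the start, and the Cavin2 window held a single match, CCAAT, 136 to 140 bases before it. The Pacsin2 window held CCAAT at 77 to 81 and at 28 to 32 bases and a GC box at 50 to 55 bases before the start. Cavin2 also had the lowest GC content, 40.4%, and 2 CpG pairs, against 59.6% with 10 pairs for Cav1, 62% with 10 pairs for Cav2 and 62% with 18 pairs for Pacsin2 (medians over 32851 RefSeq windows 52.4% and 6). Windows were matched by symbol for 7 of the 8 genes, all but Cavin3, and of these first-listed windows 6 held CCAAT (33.85% of all windows did) and 6 a GC box (32.74%). Among the 7, those of Cavin1 and Pacsin3 lay wholly (250 bases) in annotated exons of their own gene, and that of Ehd2 shared 32 bases with one. The shares of all windows include further listed starts of a gene, whereas the counts over the 7 do not. The TATA box was in 1 (12.37% of all), the C/EBP-type motif in 1 (9.56%) and the TEAD-type motif in 2 (12.64%). The half-site (14.02%), DR1 (0.03%) and the sterol element (1.05%) were in 0 of the 7. A match is a description of letters and not a binding site.

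Cavin1 (ENSMUSG00000004044, chromosome 11), the organiser of the cavin coat, rose less steeply from a higher start. It was at 421, 393 and 403 CPM at day 0, at 1489, 1444 and 1372 CPM at day 4 and at 776, 899 and 974.6 CPM at day 8. The 3 days formed 3 separate bands. Its level was 3.54-fold higher at day 4 (1.82, SE 0.15, adjusted p = 4.35e-06) and 2.18-fold higher at day 8 than at day 0 (1.12, SE 0.15, adjusted p = 8.12e-05), and it fell by 0.70 on the log2 scale between them (SE 0.14, adjusted p = 0.00821).

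Cavin2 (ENSMUSG00000045954, chromosome 1), a cavin that binds phosphatidylserine, rose from a low start. It went from 33.4, 22.4 and 21.2 CPM at day 0 to 308, 203 and 273 CPM at day 4 and 165, 80.1 and 117 CPM at day 8. No library of 1 day overlapped those of another. The rise was 10.2-fold by day 4 (3.35, SE 0.30, adjusted p = 7.46e-06) and 4.70-fold by day 8 (2.23, SE 0.28, adjusted p = 6.76e-05). Cavin2 fell by 1.11 on the log2 scale from day 4 to day 8 (SE 0.27, adjusted p = 0.0169). The fall missed the threshold when day 4 replicate 3 was left out (-1.08, adjusted p = 0.0514) or day 8 replicate 2 was (-0.89, adjusted p = 0.0559).

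Cavin3 (ENSMUSG00000037060, chromosome 7), also known as a binding protein of protein kinase C delta, rose by day 4 and showed no fall afterwards. Levels were 105, 100.3 and 97.9 CPM at day 0, 192, 193 and 174 CPM at day 4 and 178, 209 and 241 CPM at day 8. Days 4 and 8 overlapped, and both lay above day 0. The gene was 1.84-fold higher at day 4 (0.88, SE 0.14, adjusted p = 0.000347) and 2.07-fold higher at day 8 (1.05, SE 0.14, adjusted p = 8.12e-05). The difference of day 8 from day 4 was 0.17 (95% interval -0.13 to 0.47, adjusted p = 0.382). Of its exon bases 22.5% are shared with a tentative gene model on the opposite strand, Gm45667, which had 29 counts over all libraries against 3097 to 6867 per library for Cavin3.

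Ehd2 (ENSMUSG00000074364, chromosome 7), the ATPase at the caveolar neck, followed Cavin1 closely. Its levels were 307, 323 and 293 CPM at day 0, 1195, 1064 and 1152 CPM at day 4 and 701, 781 and 848 CPM at day 8. Each day lay apart from the others, and the spread within a day was at most 1.21-fold. Ehd2 was 3.69-fold higher at day 4 (1.88, SE 0.14, adjusted p = 2.9e-06) and 2.52-fold higher at day 8 than at day 0 (1.34, SE 0.14, adjusted p = 2.24e-05). It fell by 0.55 from day 4 to day 8 (SE 0.14, adjusted p = 0.0203), and this call was lost without day 4 replicate 3 (adjusted p = 0.063), without day 8 replicate 1 (0.0607) or with only those 2 days in the fit (0.074). Over the 9 libraries the centred log2 CPM of Ehd2 and Cavin1 differed by a root mean square of 0.112, the smallest distance among the 28 pairs of the 8 genes. Some genes outside the 8 lay nearer still: Hebp1 and Aldh4a1 at 0.102 and Tle1 at 0.110 from Ehd2, and Cd320 at 0.106 from Cavin1.

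Pacsin2 (ENSMUSG00000016664, chromosome 15), the broadly expressed F-BAR member, changed little. It was at 76.8, 81.7 and 79.1 CPM at day 0, 60.6, 92.2 and 69.0 CPM at day 4 and 61.9, 58.0 and 62.7 CPM at day 8. The highest value belonged to day 4 replicate 2. Day 4 differed from day 0 by -0.10 (95% interval -0.44 to 0.24, adjusted p = 0.604), by -0.29 without day 4 replicate 2 (adjusted p = 0.0496) and by 0.03 without day 4 replicate 1 (adjusted p = 0.881). At day 8 it was lower than at day 0 (-0.38, SE 0.15, adjusted p = 0.0486), with no overlap of the groups. That call was lost without any one of the day 0 or day 8 libraries or day 4 replicate 3 (adjusted p from 0.0674 to 0.122), with no filter on low counts (0.0795) and with the replicate number as a block (0.0559).

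Pacsin3 (ENSMUSG00000027257, chromosome 2), the member best known from muscle, was the only 1 of the 8 to pass as higher at day 8 than at day 4. It stood at 20.9, 19.6 and 20.6 CPM at day 0, 22.1, 12.9 and 12.1 CPM at day 4 and 26.2, 32.9 and 33.5 CPM at day 8. Day 8 lay above both other days, and day 4 replicate 1 lay above the day 0 libraries while the other two of day 4 lay below them. It rose 1.97-fold from day 4 to day 8 (0.98, SE 0.22, adjusted p = 0.0123). Day 4 differed from day 0 by -0.38 (95% interval -0.86 to 0.11, adjusted p = 0.17), and the difference passed without day 4 replicate 1 (-0.70, adjusted p = 0.00548) and with total counts (-0.72, adjusted p = 0.0117). Day 8 was 1.52-fold above day 0 (0.60, SE 0.22, adjusted p = 0.0328). This did not pass without any one of the day 0 libraries or without day 8 replicate 2 or 3 (adjusted p from 0.0795 to 0.096), or with total counts (0.24, adjusted p = 0.317).

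**Figure D2:**
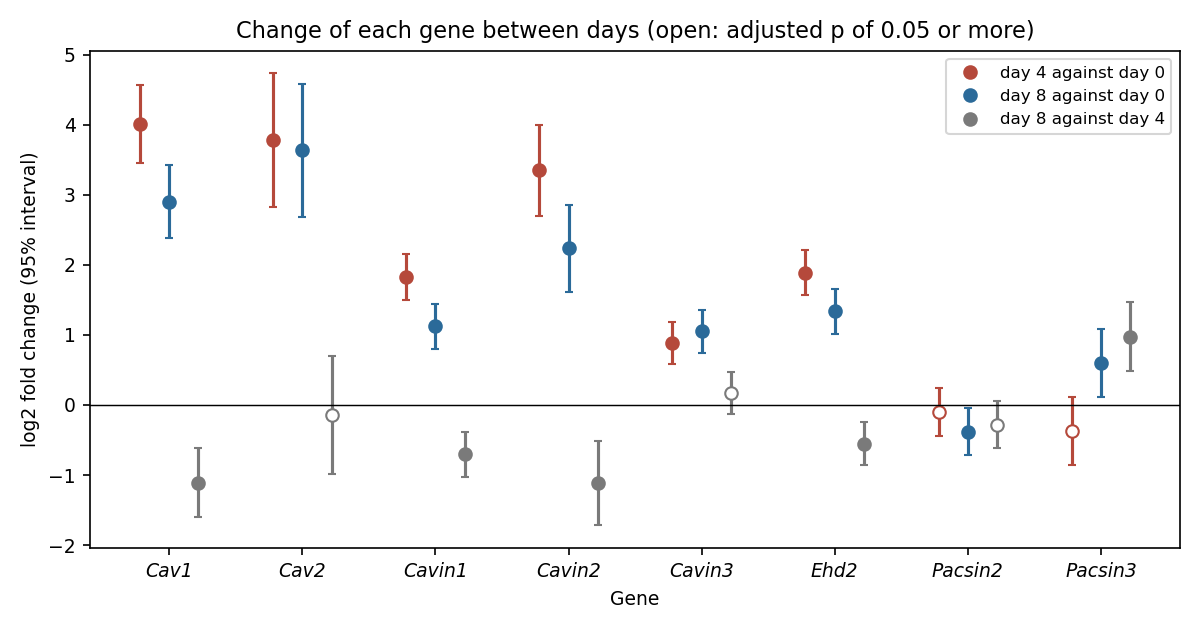
Log2 fold change of each gene (vertical axis) in the 3 comparisons, with 95% intervals; filled points have an adjusted p under 0.05 and open points do not. Cav1, Cav2 and Cavin2 lie between 3.35 and 4.01 at day 4 against day 0, Cavin1 and Ehd2 at 1.82 and 1.88, Cavin3 at 0.88, and both Pacsin genes below 0.

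To compare levels between genes, CPM was divided by exon length in kilobases (GENCODE M21). At day 0 Cavin1 had the highest level of the group, 113 CPM per kb, followed by Cavin3 and Ehd2 at 60.8 and 60.1, whose ranges overlapped. Cav1 came next at 27.7, then Pacsin2 at 16.1, Cavin2 at 8.40, Pacsin3 at 4.70 and Cav2 at 2.09 CPM per kb, with no overlap between these neighbours. By day 4 Cav1, at 447 CPM per kb, had a mean above that of Cavin1, at 400.0, though their ranges overlapped, and it exceeded 99% of the tested genes with a length (88.9% at day 0). Ehd2 (222), Cavin3 (112) and Cavin2 (85.5) followed without overlap, and Cav2 (28.7) overlapped Pacsin2 (15.1), with Pacsin3 last at 3.63. At day 8 Cavin1 (246) and Cav1 (207) overlapped, as did Ehd2 (152) and Cavin3 (126), and Cavin2 (39.5) and Cav2 (26), while Pacsin2 (12.4) and Pacsin3 (7.13) lay apart at the bottom.

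The summed level of the 8 genes was 293 ± 16.2 CPM per kb at day 0, 1314 ± 74.2 at day 4 and 816 ± 55.6 at day 8. In that sum Cav1 made up 9.39% ± 2.33, 33.9% ± 3.16 and 25.4% ± 2.82 on the 3 days. The share of Cavin1 was 38.6% ± 0.928, 30.5% ± 2.37 and 30.2% ± 2.99, and that of Cavin3 was 20.8% ± 0.521, 8.55% ± 0.885 and 15.4% ± 1.80. Pacsin2 fell from 5.52% to 1.16% at day 4 as a share while its own level did not pass the test.

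**Figure D3:**
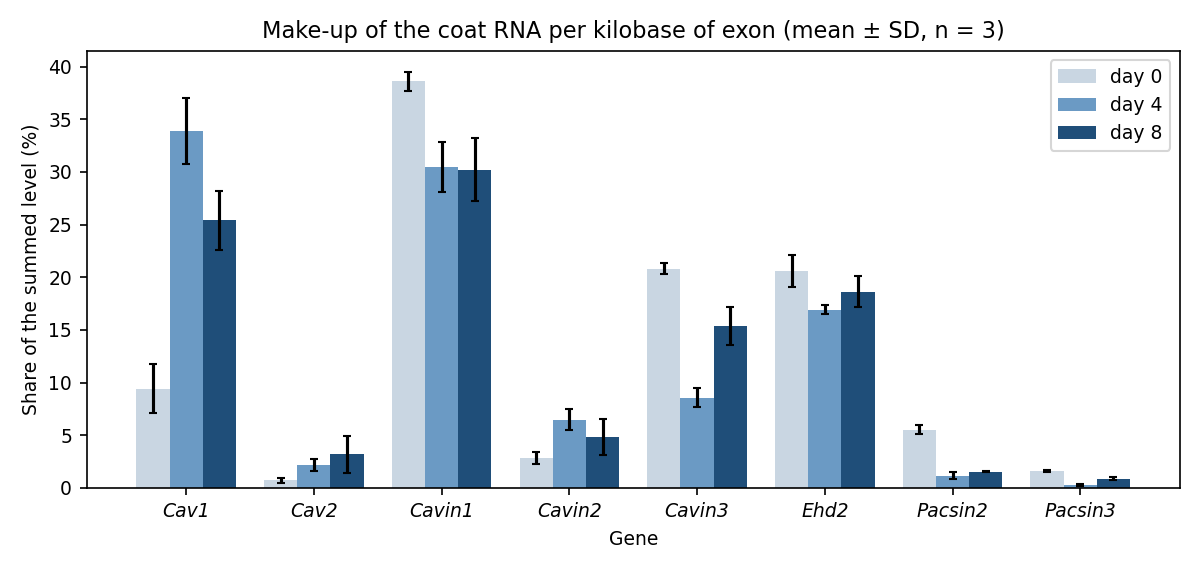
Share of each gene in the summed level of the 8 genes (CPM per kb of exon, percent, axis from 0) at days 0, 4 and 8, as mean with bars of 1 SD (n = 3). Cav1 goes from 9.39% to 33.9% and 25.4%, while Cavin3 goes from 20.8% to 8.55% and back to 15.4%.

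Ratios of 2 genes within a library do not depend on how libraries are scaled, and 10 such ratios were compared over the 3 days with an exact permutation test over every arrangement of the 9 libraries (smallest possible p 0.00357, Benjamini-Hochberg over the 10). An exact two-sided test of 3 libraries against 3 cannot go below p = 0.1, so no ratio was tested between 2 days. Of the 10 ratios 9 passed, with Cavin2 per Cav1 the exception. Most of the 10 have Cav1 as the denominator, so they share its rise and are not separate results. They also use the same counts as the tests of single genes above. Cavin1 per Cav1 went from 4.30 ± 1.1 at day 0 to 0.908 ± 0.143 at day 4 and 1.21 ± 0.241 at day 8 (ratio of CPM per kb; exact permutation adjusted p = 0.0179). Ehd2 per Cav1 went from 2.31 ± 0.739 to 0.502 ± 0.055 and 0.742 ± 0.135, and Cavin3 per Cav1 from 2.31 ± 0.626 to 0.255 ± 0.0458 and 0.617 ± 0.130 (exact permutation adjusted p = 0.00893 for each). Pacsin2 per Cav1 and Pacsin3 per Cav1 passed at the same value, with ratios of 0.621 and 0.179 at day 0 and 0.0345 and 0.00827 at day 4.

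Among the cavins, Cavin3 per Cavin1 was the steadiest ratio within a day. It stood at 0.538 ± 0.0129 before induction, 0.280 ± 0.00745 at day 4 and 0.511 ± 0.0197 at day 8 (exact permutation adjusted p = 0.0143). Day 4 lay far below both other days, whose ranges overlapped (0.524 to 0.550 and 0.497 to 0.533). Cavin2 per Cavin1 stood at 0.0739 ± 0.0168, 0.214 ± 0.0424 and 0.165 ± 0.0755 (exact permutation adjusted p = 0.0255). It did not pass without any one of the day 0 or day 4 libraries or day 8 replicate 3 (0.0536 to 0.0893). Cavin2 per Cav1 was 0.308 ± 0.0470, 0.192 ± 0.0361 and 0.187 ± 0.0443 and did not pass (exact permutation adjusted p = 0.05), but did without day 4 replicate 1 (0.0397) or day 8 replicate 1 (0.0312).

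Cav2 per Cav1 stood at 0.0742 ± 0.00574 before induction, 0.0638 ± 0.0166 at day 4 and 0.122 ± 0.0532 at day 8 (exact permutation adjusted p = 0.0268). The call was lost without any one of the day 0 libraries, day 4 replicate 2 or 3, or day 8 replicate 1 (0.0714 to 0.129), and the last of these held the highest ratio, 0.183. Pacsin3 per Pacsin2 was 0.292 ± 0.0184, 0.257 ± 0.137 and 0.576 ± 0.0859 (exact permutation adjusted p = 0.0317), and it passed only with all 9 libraries or without day 4 replicate 1.

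**Figure D4:**
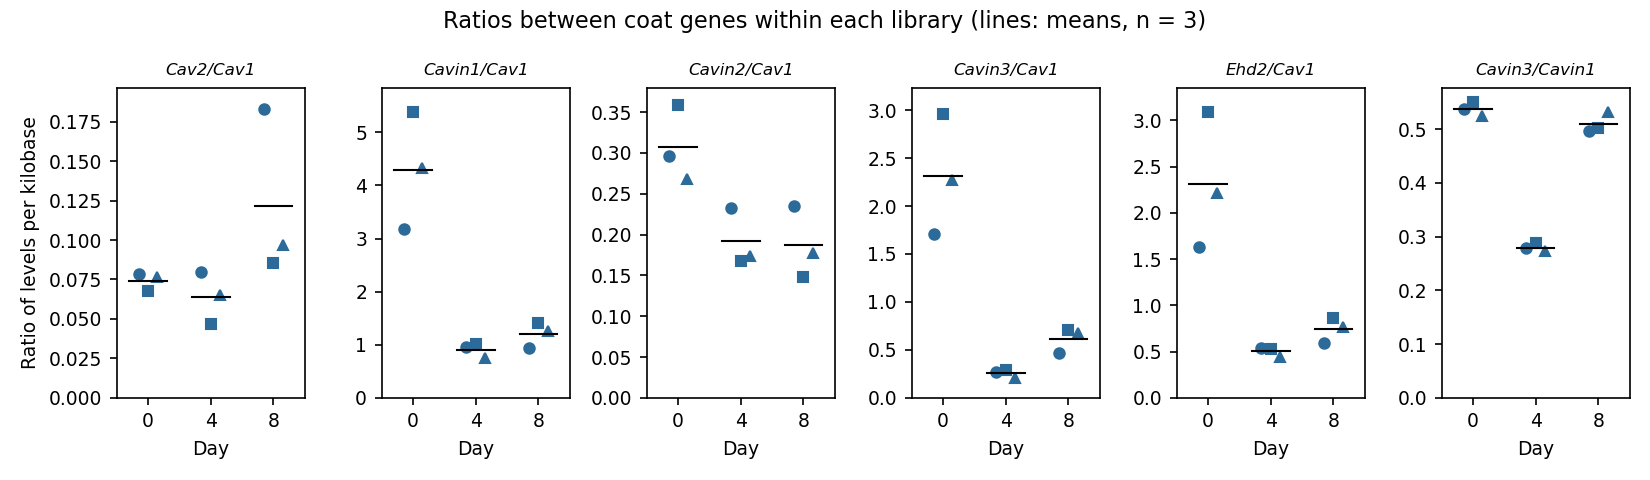
Ratio of levels per kilobase between named pairs of genes (vertical axes from 0) in each library by day, with circles, squares and triangles for replicates 1, 2 and 3 and lines at the means (n = 3). Cavin1, Cavin3 and Ehd2 per Cav1 drop from day 0 to day 4, and Cavin3 per Cavin1 dips to 0.280 at day 4 and returns to 0.511 at day 8.

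The spread between replicates differed among the genes in a patterned way. At day 0 the highest library exceeded the lowest 1.81-fold for Cav1, 2.10-fold for Cav2 and 1.57-fold for Cavin2, with replicate 1 highest for each, but by 1.06-fold to 1.1-fold for the other 5 genes. At day 8 replicate 1 was again highest and replicate 2 lowest for Cav1, Cav2 and Cavin2 (1.30-fold, 2.77-fold and 2.06-fold), whereas for Cavin1, Cavin3 and Ehd2 replicate 1 was lowest and replicate 3 highest (1.26-fold, 1.35-fold and 1.21-fold). At day 4 replicate 2, the library that stood apart, was the lowest for Cav1, Cav2, Cavin2 and Ehd2, by at most 1.86-fold. Replicate 2 was also the lowest at day 0 for Cav1 and Cav2, so for these genes it was lowest on days 0, 4 and 8 alike. For Cav2 and Cavin2 replicate 1 was the highest on days 0, 4 and 8. These orders are a description of 9 libraries, with no test.

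Paralogs of the coat genes that are best known from striated muscle or neurons were low. The floor of 3 counts corresponds to 0.0809 to 0.125 CPM. Cav3, the muscle caveolin, had 36 counts over all 9 libraries and Pacsin1, the neuronal member, 12, and neither was tested. Cavin4, the muscle cavin, had enough counts to be tested and was at 1.03 ± 0.0981 CPM at day 0, 0.700 ± 0.0664 at day 4 and 0.731 ± 0.185 at day 8 and did not pass in any comparison (adjusted p from 0.217). Of 8 skeletal muscle markers 4 (Myod1, Ckm, Myh4 and Myf5) had 0 counts in every library, and the list summed to at most 2.18 CPM. The endothelium is another tissue rich in caveolae, and its 10 markers summed to 15.1 to 19.8, 31.1 to 38.9 and 19.2 to 30.7 CPM at days 0, 4 and 8. Of 7 tested, 2 were higher at day 4 than at day 0, Egfl7 (3.62 ± 0.946 to 25.3 ± 5.68 CPM, adjusted p = 1.26e-05) and Plvap, and 2 were lower, Tek (10.6 ± 2.59 to 4.38 ± 3.63 CPM, adjusted p = 0.0368) and Emcn. At day 8, 2 were higher and 4 lower than at day 0. Pecam1, Cdh5, Kdr, Tie1, Emcn, Vwf and Cldn5 were each at or below 1.23 CPM in every library, and the highest of these values was that of Kdr. Mural and smooth muscle cells, also rich in caveolae, had 8 markers that summed to 47.7 to 62.5, 79.3 to 96.2 and 72.7 to 91.6 CPM, and the part of endothelial or mural cells in the results was not tested. Among relatives of Ehd2, the recycling protein Ehd1 rose from 179 ± 3.96 to 355 ± 18.8 CPM by day 4 (0.99, SE 0.13, adjusted p = 0.00012) and fell to 211 ± 24.4 by day 8 (-0.75, SE 0.13, adjusted p = 0.00379). Ehd4 was lower at day 4 than at day 0 (-0.93, SE 0.17, adjusted p = 0.00116), and Ehd3 was lower at day 8 than at day 0 (-1.56, SE 0.40, adjusted p = 0.00563).

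Of 15 tested genes for proteins that reside in caveolae or act on them, 7 were higher and 6 lower at day 4 than at day 0, with a median of 0.03, and 7 were higher and 7 lower at day 8 (median -0.03). The fatty acid translocase Cd36 rose from 0.847 ± 0.617 to 1589 ± 609 CPM by day 4 (10.88, SE 0.64, adjusted p = 4.87e-07), and the insulin-regulated glucose transporter Slc2a4 from 0.293 ± 0.0323 to 384 ± 206 CPM (10.33, SE 0.58, adjusted p = 4.18e-07). Bves, a membrane protein that binds Cav3, rose from 0.185 to 7.36 CPM (5.28, SE 0.54, adjusted p = 1.99e-05), and Plvap, which forms the diaphragm of endothelial caveolae, rose from 0.593 ± 0.216 to 4.17 ± 2.36 CPM (2.82, SE 0.50, adjusted p = 0.000808). Lower at day 4 were Fyn (-2.12, SE 0.35, adjusted p = 0.000545) and Src (-1.50, SE 0.28, adjusted p = 0.00104), kinases that phosphorylate Cav1. So was Flna (-1.79, SE 0.28, adjusted p = 0.000362), which ties caveolae to actin filaments. Dynamin 2, Dnm2, which cuts vesicles from the membrane, was at 130 ± 8.94, 132 ± 12.7 and 127 ± 14.8 CPM and did not pass in any comparison.

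The genes whose course over the 9 libraries was nearest to that of a coat gene were picked by the smallest root mean square difference of centred log2 CPM among 9348 genes with at least 10 CPM at some day. For Cav1 they were Tmem120a (0.286), Mmd (0.291) and Abhd5 (0.296), the last a co-activator of fat breakdown, and these 3 were also the nearest without day 4 replicate 2. For Cavin1 they were Cd320 (0.106), Mocs1 (0.119) and Nsdhl (0.130), and for Ehd2 they were Hebp1 (0.102), Aldh4a1 (0.102) and Tle1 (0.110), of which 1 each remained without that library. For Pacsin2 they were Nsf (0.0534), Man2a2 (0.0597) and Prep (0.0695), none of which was among the nearest 3 without it. Such likeness over 3 days of 3 libraries is a description and rests mostly on the means of the days.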

How the data were processed

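Per the labels' protocols, RNA came from the spun supernatant of a detergent lysate containing cycloheximide, and the library kit was a stranded one for total RNA. The authors deposited raw counts of reads per Ensembl gene, not normalized, made with HISAT2 and featureCounts on GRCm39, per the submitters' processing notes. For versions, strand setting and annotation the sources used here state nothing. Of 55359 genes 30671 had no count.

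In R 4.3.3, edgeR 4.0.16 (filterByExpr, minimum count 10, minimum total 15, leaving 14649 genes; TMM; 1 quasi-likelihood fit of all 9 libraries, 6 residual degrees of freedom) tested 3 comparisons with Benjamini-Hochberg adjustment at 0.05. DESeq2 1.42.0 was an alternative. Ratios (0.5 added to each count) were tested in Python 3.11.15 by going through every arrangement. Exon lengths came from GENCODE M21 (GRCm38, another build) and promoters from RefSeq. In counts simulated from day 0 levels for day 4 against day 0, 97 genes were changed by 2 log2 units and 103 by 1. Of these, 99% and 62.1% were recovered over 13695 genes, with 11 false calls. Far fewer genes changed there than were called in the real comparison, so these rates may not hold for it. No pair of libraries agreed within sampling noise (chi-square divided by degrees of freedom was 16.1 to 234). The floor of 3 counts covers counting error only, and 95% intervals come from the edgeR fit.

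The 8 genes and all lists were chosen with earlier results of these data known. All 8 genes are named with their values, list genes are up to 4 examples with the largest changes past the threshold (Fyn, Src, Flna, Dnm2, Cltc and the marker genes were named for their roles after their values were seen), and likeness names 3 genes for Cav1, Cavin1, Ehd2 and Pacsin2.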

Additional observations from a re-analysis of the deposited data

How the results depend on the processing

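Each gene's 3 comparisons were recomputed with DESeq2's size factors, total counts, no filter, DESeq2, the replicate number as a block, only the 2 days compared, and without each library in turn. Of the recomputed values 334 kept direction and side of the threshold, 20 lost and 3 gained a call, and 3 near 0 changed sign. Those 3 were Pacsin2 at day 4 against day 0, which ran from -0.29 (without day 4 replicate 2) to 0.0313 (without day 4 replicate 1) over single libraries left out, and Cav2 at day 8 against day 4, which ran from -0.67 (without day 8 replicate 1) to 0.13 (without day 8 replicate 2) and was 0.0046 without day 4 replicate 1. The cause was not tested. For Cav1, Cavin1 and Cavin3 every call was kept in all of these. Leaving out single libraries gave 6 to 7 called genes of 8 for day 4 against day 0, 6 to 8 for day 8 against day 0 and 3 to 5 for day 8 against day 4, the lowest without day 4 replicate 3. Of all genes, 3285 were called between days 4 and 8, but 1901 with only these days fitted (fewer samples), 1894 without day 4 replicate 3, 2107 without day 8 replicate 1 and 2012 without day 8 replicate 2. With total counts 35.3% of called genes were higher at day 4 than at day 0 and 37.5% at day 8, against 52.4% and 52.9%.

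Replicate numbers are shared between days, but same-numbered libraries correlated by only -0.00881 to 0.0662 (days 4 and 0), 0.0859 to 0.273 (days 8 and 0) and -0.126 to 0.0611 (days 8 and 4) in their deviations from the day means, so they were not treated as paired. With the replicate block 6 of the 8 genes were called at day 4 and 7 at day 8 relative to day 0, and 5 between days 4 and 8, in place of 6, 8 and 5; Pacsin2 was the call lost. Between days 8 and 0 each library correlated best with its own number. Of the 10 ratios, 6 to 9 passed with 1 library left out, where the exact test has fewer arrangements.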

Other observations

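Genes of the other endocytic coat, that of clathrin, were measured in the same libraries. Of 18 tested genes of clathrin, its adaptors and the flotillins, 2 were higher and 3 lower at day 4 than at day 0 (median log2 fold change -0.12) and 3 were higher and 5 lower at day 8 (median -0.05). Over the whole tested set, 28.6% of genes were called as risen and 26% as fallen by day 4. By day 8 these shares were 33.5% and 29.9%. The heavy chain Cltc was at 192 ± 11.1, 152 ± 24.8 and 161 ± 27.6 CPM at days 0, 4 and 8 and did not pass against day 0 (adjusted p = 0.105 and 0.189). The adaptor Epn1 rose by day 4 (0.84, SE 0.15, adjusted p = 0.000863) and the scaffold Itsn1 fell (-0.98, SE 0.20, adjusted p = 0.00231). Dab2, a cargo adaptor, was lower too (-1.02, SE 0.35, adjusted p = 0.0295) but did not pass without day 0 replicate 2 or 3 or day 4 replicate 1 or 3 (0.0545 to 0.105). With total counts the day 4 split was 1 higher and 9 lower, and that of day 8 was 0 higher and 9 lower.

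Other membrane-bending proteins, most of them of the BAR type, were mostly lower after differentiation. Of 15 tested, 8 were lower and 2 higher at day 4 than at day 0 (median -0.65; 11 lower and 2 higher without day 4 replicate 2), and 10 were lower and 2 higher at day 8 (median -0.97). Beside these counts, 26% of all tested genes were lower and 28.6% higher at day 4, and 29.9% and 33.5% at day 8. Fnbp1l fell from 10.4 ± 2.00 to 1.78 ± 0.619 CPM by day 4 (-2.55, SE 0.30, adjusted p = 5.78e-05), Snx18 by 1.22 (SE 0.15, adjusted p = 6.3e-05) and Fnbp1 by 1.18 (SE 0.16, adjusted p = 0.000175) on the log2 scale. Baiap2, an I-BAR protein that bends membranes the other way, rose from 18.1 ± 0.439 to 56.5 ± 8.38 CPM (1.64, SE 0.14, adjusted p = 4.68e-06).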
